A study of Saccharomyces cerevisiae with 12 samples.

Results

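Expression was compared between *ups1*Δ and wild-type budding yeast after both had been exposed to tunicamycin, across all genes. The comparison used the 3 libraries labelled *ups1* knockout with tunicamycin and the 3 libraries labelled wild type with tunicamycin, 6 of the 12 libraries of the series. The members were chosen by their labels alone. The other 6 libraries, 3 wild-type and 3 *ups1*Δ cultures without the drug, were used mainly to ask whether the difference between the genotypes was the same with and without tunicamycin. They also gave levels to set beside the treated ones, entered the scaling of expression levels, and were part of an alternative fit of the treated comparison.

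Ups1 works with Mdm35 in the mitochondrial intermembrane space, where it carries phosphatidic acid from the outer to the inner membrane for the synthesis of cardiolipin. Tunicamycin inhibits Alg7, the enzyme that starts the lipid-linked oligosaccharide used for N-glycosylation, so that unglycosylated proteins misfold in the ER. Ire1 then splices the *HAC1* mRNA, and the Hac1 protein switches on the genes of the unfolded protein response (UPR). Stress in the secretory pathway is also known to repress ribosomal genes and to engage the cell wall integrity pathway.

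All cultures were of the strain S288c, grown at 30 °C to log phase in synthetic glucose medium. The treated ones received tunicamycin at 1 µg/ml for 3 h. Poly(A)-selected RNA was sequenced and counted per gene. Each treated library held between 4650828 and 7101983 counts. Levels are given in CPM, the counts of a gene divided by the library total after TMM scaling, which assumes that most genes are alike between libraries, and multiplied up to a common base. The detection floor, set at 3 counts, lay between 0.415 and 0.618 CPM. CPM values do not take gene length into account, so levels are compared between libraries and not between genes. The replicates are described as biological ones, 3 per group.

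*UPS1* (YLR193C, chromosome XII, 540009 to 540536) had 421, 296 and 427 counts in the treated wild-type libraries and 0, 0 and 2 in the treated *ups1*Δ libraries. The ratio of wild type to knockout was 561.5, with an exact (Clopper-Pearson) 95% interval of 155.1 to 4642.2 that covers counting error only. The strains also differed elsewhere. *LYS2* and *MET17*, which make enzymes of lysine and sulfur amino acid synthesis, had 0 counts in each wild-type library. The treated *ups1*Δ libraries had 1428, 1904 and 1604 counts of *LYS2* and 2302, 3402 and 2625 counts of *MET17*. *LEU2* and *URA3* had 0 counts in all. Of 8 genes listed as a-specific, 7 were lower in *ups1*Δ cells, such as the pheromone receptor gene *STE2*. The exception was *AFB1* (2.41), whose product is known from alpha cells. All 4 alpha-specific genes were higher, among them *STE3* (3.20). The treated comparison is therefore also one between mating types and marker genes, which cannot be told apart from the loss of *UPS1*. The 26 genes of these lists, with *UPS1*, were set aside and are not described further.

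The treated *ups1*Δ libraries resembled each other, with Pearson's r across genes of 0.990 to 0.994 on a log scale. Wild-type replicate 2 stood apart from replicates 1 and 3 (r of 0.978 and 0.979, against 0.989 between those). The UPR target list is given with and without it. The medians of other lists are given with every treated library kept, though replicate 2 stood apart in some. In the ER translocon list its mean log2 level relative to the group mean was 0.21, against -0.07 and -0.14 in replicates 1 and 3. The 50 most abundant genes made up 16.2% to 17.9% of all counts under tunicamycin in wild-type and 22.9% to 23.7% in *ups1*Δ cells. The scaling therefore matters. Scaled by library size alone, the genes had a median difference of -0.33 on the log2 scale, against -0.03 with TMM, and this shift applies to every gene named below.

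Of 5771 genes tested, 3831 (66.4%) differed between treated *ups1*Δ and treated wild-type cells at an adjusted p-value under 0.05, with 1890 (32.7%) higher and 1941 (33.6%) lower in *ups1*Δ cells. With library size alone 1237 were higher and 2967 lower, so that 70.6% instead of 50.7% of the called genes were lower. A log2 fold change of 1 or more was reached by 732 of the higher genes, and 582 of the lower ones fell by as much. For 4139 genes (71.7%) the libraries of the groups did not overlap, so a lack of overlap in a gene named below is common. Leaving out 1 library at a time gave between 3394 (without *ups1*Δ replicate 1) and 4081 genes (without wild-type replicate 2). With 66.4% of genes called, a count of called members in a list has to be read against these shares, and the sizes of the differences carry more information. The plot of all lists shows the range, from sulfate assimilation at the bottom to ribosomal proteins at the top.

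**Figure D1:**
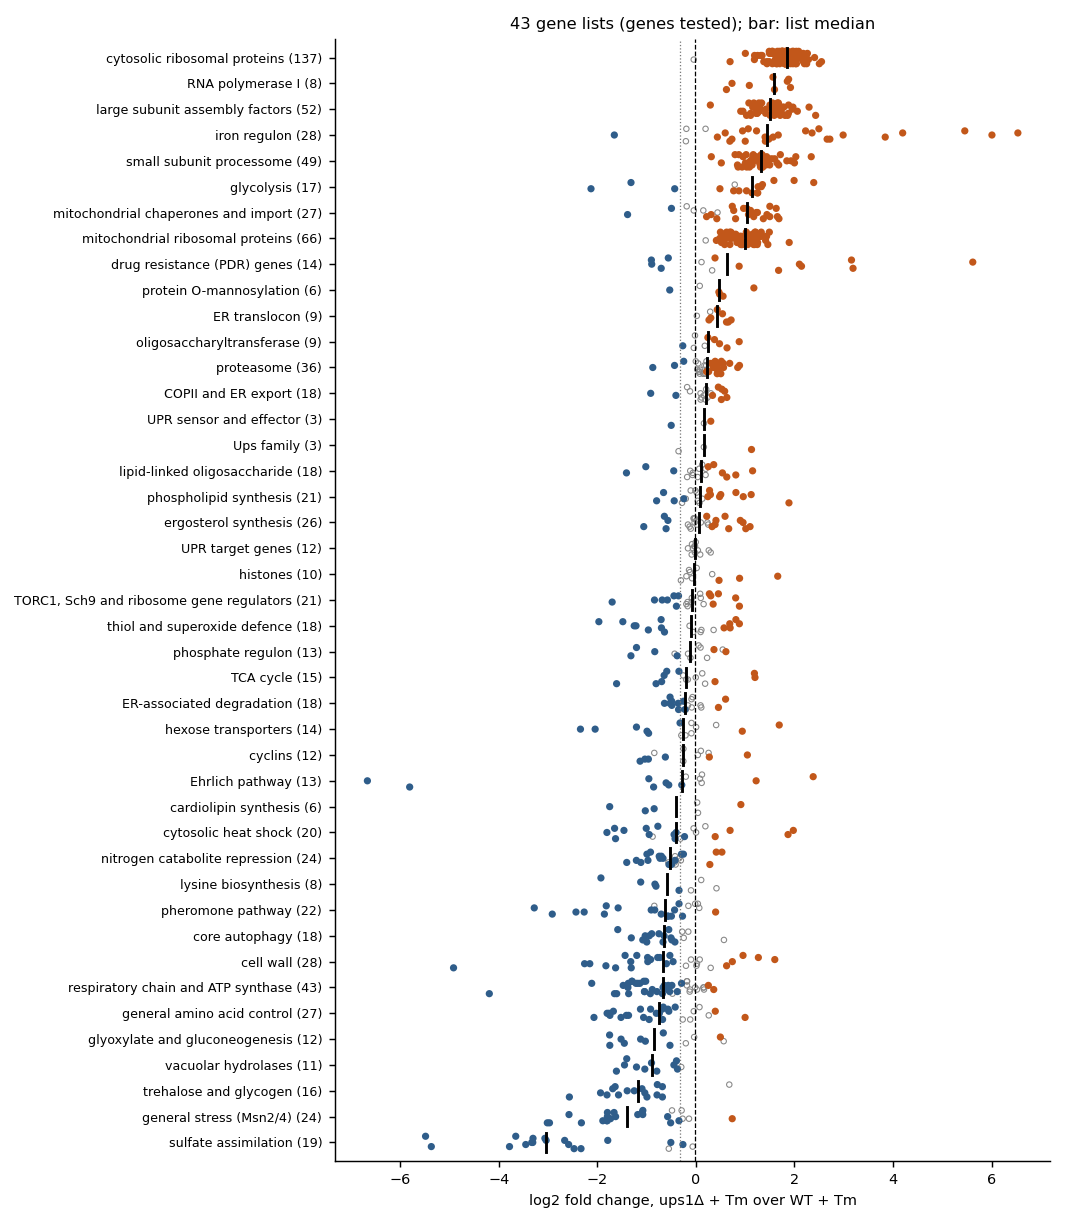
Log2 fold change of each tested member of 43 gene lists between treated *ups1*Δ and treated wild-type cells (x axis, TMM scaling), one point per gene, with the number of genes tested in parentheses. Filled points were called at an adjusted p-value under 0.05 (orange higher, blue lower in *ups1*Δ cells), open points were not, and the bar is the list's median. The dashed line is the median of all genes at -0.03, and the dotted line marks that median at -0.33 with library size alone. Relative to 0, the medians of 8 lists near the dashed line turned negative with that scaling (Ups family, phospholipid synthesis, ergosterol synthesis, UPR sensor and effector, lipid-linked oligosaccharide, oligosaccharyltransferase, COPII and ER export, and proteasome).

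The transcriptional targets of the UPR did not separate the genotypes under the drug. *KAR2* (YJL034W, chromosome X, 381327 to 383375), which encodes the ER chaperone BiP, stood at 3222, 5198 and 2746 CPM in the treated wild-type libraries and at 3148, 3715 and 3705 in the treated *ups1*Δ libraries, all inside the wild-type range, with a difference of -0.08 (SE 0.23, adjusted p = 0.774) on the log2 scale, the scale of every fold change below. *ERO1*, the thiol oxidase that recharges protein disulfide isomerase, stood at 628, 821 and 532 CPM and 560.4, 657 and 736 CPM (-0.02). *PDI1*, the isomerase itself, had the highest value of the list (0.30, adjusted p = 0.178) and *SIL1*, a nucleotide exchange factor of Kar2, the lowest (-0.16). *ULI1* varied widely between libraries, at 31.6, 129.6 and 28.9 CPM in wild-type and 51.3, 70.2 and 65.3 CPM in *ups1*Δ cells. Of 12 targets, 0 were called in edgeR in either direction, 1 was higher and 0 lower at an unadjusted p-value under 0.05, and 0 were called with DESeq2. Their median was -0.02. In wild-type replicate 2, *KAR2*, *PDI1*, *ERO1* and *ULI1* were each higher than in any other library of that group. Without it the median was 0.19, with 5 genes higher and 0 lower in *ups1*Δ cells. With library size alone it was -0.32, with 4 genes lower and 0 higher. Without tunicamycin, 9 of the 12 had been lower in *ups1*Δ cells (median -0.42), where 25.8% of all genes were lower, 26.5% higher and 52.3% called. The difference between the genotypes changed with the drug for 7 of 12, all upward, against 32.9% of all genes upward and 33.2% downward (interaction for *KAR2* 0.84 (adjusted p = 0.00965)).

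The sensor gene *IRE1* stood at 90.7, 84.0 and 84.4 CPM and 98.9, 101 and 90.0 CPM (0.16, adjusted p = 0.105). *HAC1*, whose mRNA Ire1 splices, was lower in *ups1*Δ cells (-0.50, SE 0.13, adjusted p = 0.0053). It stood at 988, 1055 and 877 CPM in wild-type and 660.4, 679 and 724 CPM in *ups1*Δ cells. The groups did not overlap, as for 71.7% of all genes. Counts per gene do not separate spliced from unspliced *HAC1* mRNA. *TRL1*, the tRNA ligase that joins the *HAC1* exons, was higher by 0.30 (adjusted p = 0.02), a call lost without wild-type replicate 1 (0.26) or *ups1*Δ replicate 1 (0.28), with DESeq2 (0.32) and with library size alone (0.0023). Among 18 genes of ER-associated degradation, which pulls misfolded proteins out of the ER for destruction, 2 were higher and 9 lower (median -0.21). *YOS9*, a lectin that reads trimmed glycans, was at -0.36, and the lowest was *PNG1*, a cytosolic glycanase, at -0.64. *HRD1* (-0.16), *DER1* (-0.09) and *UBC7* (-0.20) of the Hrd1 ligase pathway were not called, whereas *USA1* (-0.53, adjusted p = 4.30e-04) and *HRD3* (-0.25, adjusted p = 0.0408) of the same pathway were lower. *HRD3* lost its call in 4 of the 6 fits without 1 library (-0.28 to -0.15) and with DESeq2 (-0.24). The higher pair was *UBC6* (0.60) and *SSM4* (0.46), a ubiquitin-conjugating enzyme and the ligase it works with, and the call of *SSM4* was lost with library size alone (0.16).

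Most genes for protein entry into the ER and for O-mannosylation were higher in treated *ups1*Δ cells, by modest amounts. *SEC61*, the channel of the translocon, stood at 376, 424 and 315 CPM in treated wild-type and 471, 507 and 528 CPM in treated *ups1*Δ libraries (0.43, adjusted p = 0.0141). *SEC63*, the J-protein partner of the channel, was higher by 0.66 (adjusted p = 0.00287). In all, 7 of 9 translocon genes were higher and 0 lower (median 0.43, from 0.02 for *SBH2* to 0.71 for *SSH1*). The call of *SEC61* was lost without *ups1*Δ replicate 2 (0.44) or 3 (0.41), and with library size alone the median was 0.13 with 2 genes higher and 1 lower.

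Of 6 protein O-mannosyltransferases, 4 were higher and 1 lower (median 0.47, or 0.17 with library size alone). *PMT4* was the highest at 1.18, *PMT1* was at 0.47 and *PMT2* at 0.55, and *PMT6* was the lower one at -0.53. The calls of *PMT1* (0.17) and *PMT2* (0.25) were lost with library size alone. The call of *PMT1* was lost without wild-type replicate 3 (0.34), *ups1*Δ replicate 2 (0.48) or *ups1*Δ replicate 3 (0.45). In the oligosaccharyltransferase, which moves the finished glycan onto proteins, 5 of 9 subunit genes were higher and 1 lower (median 0.24, but -0.06 with library size alone, with 2 higher and 3 lower). The catalytic subunit gene *STT3* was at 0.48 (adjusted p = 0.0141), *OST3* at 0.63 and *OST5*, the highest, at 0.88. *OST2* was lower at -0.27 (adjusted p = 0.0352). *STT3* lost its call without *ups1*Δ replicate 3 (0.42) and with library size alone (0.18), and *OST2* lost it in 5 of the 6 fits without 1 library (-0.31 to -0.21), with all 12 libraries in one fit and with DESeq2.

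*ALG7*, the gene for the enzyme that tunicamycin inhibits, stood at 65.2, 104 and 62.2 CPM in treated wild-type and 77.3, 95.9 and 91.3 CPM in treated *ups1*Δ libraries. These ranges overlapped, and the log2 fold change was 0.20 (adjusted p = 0.402), or -0.10 with library size alone. *ALG1*, which adds the first mannose, was at -0.12 and not called. *ALG3*, which adds a mannose on the lumenal side, was higher at 50.04, 50.1 and 48.8 CPM against 83.7, 82.1 and 95.8 CPM (0.81, adjusted p = 3.52e-05). Of 18 genes of the pathway, 6 were higher and 3 lower, against 32.7% and 33.6% of all genes. The median of the list was 0.10 and turned to -0.20 with library size alone. *DPM1*, which makes dolichol-phosphate mannose, was the highest (1.15). *DFG10* (-1.41), the polyprenol reductase of dolichol synthesis, *ALG13* (-1.02) and *SEC59* (-0.45), the dolichol kinase, were the lower ones.

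Among 18 genes of the COPII coat and cargo export from the ER, 6 were higher and 2 lower (median 0.20, turning to -0.10 with library size alone). Of all genes 32.7% were higher and 33.6% lower, so the count of higher genes was near the general share. The coat genes did not move as one. *SAR1*, the GTPase that starts the coat, was at 0.34 (adjusted p = 0.0307), *SEC23* at 0.30 and not called, and *SEC24*, the cargo adaptor, at -0.41 (adjusted p = 0.0172). The largest difference upward was *ERP1*, a p24 cargo receptor (0.63), and downward *EMP46* (-0.92). *SAR1* lost its call in 5 of the 6 fits without 1 library (0.25 to 0.39) and with library size alone (0.038), and *SEC24* without any one of the *ups1*Δ libraries (-0.41 to -0.36).

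Several genes of the cell wall integrity pathway stood lower in treated *ups1*Δ than in treated wild-type cells. Of its sensor genes, *MID2* (-0.98) and *WSC3* (-0.46) were lower, and *SLG1* (0.08) and *WSC2* (-0.20) were not called. *SLT2* (YHR030C, chromosome VIII, 168890 to 170344), the MAP kinase of the pathway, was at 989, 854 and 938 CPM in wild-type and 224, 278 and 282 CPM in *ups1*Δ cells (-1.83, SE 0.14, adjusted p = 2.39e-06). *RLM1*, the transcription factor that Slt2 phosphorylates, was at 284, 271 and 238 CPM and 159, 173 and 146 CPM (-0.73, adjusted p = 1.53e-04). No *ups1*Δ library reached the wild-type range for either gene, and the groups were apart in 71.7% of all genes. *CHS3*, the main chitin synthase, differed by -1.31 (adjusted p = 4.34e-06), and *GSC2*, the stress-induced glucan synthase, by -0.78 (adjusted p = 0.00318), whereas the growth-related glucan synthase gene *FKS1* did not pass the test (-0.10). *PIR3*, a protein linked to the wall glucan, was the lowest, at 1174, 295 and 585 CPM in wild-type and 24.4, 20.2 and 23.5 CPM in *ups1*Δ cells (-4.92), and its wild-type values were widely spread. Of 28 wall genes, 17 were lower and 5 higher (median -0.66, against 33.6% lower among all genes).

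The 5 higher wall genes were *UTR2* (1.601), *GAS3* (1.27), *GAS1* (0.96), *CIS3* (0.74) and *CHS2* (0.62). The call of *CIS3* was lost in 5 of the 6 fits without 1 library (0.52 to 0.79), with DESeq2 and with library size alone. Utr2 and the Gas proteins remodel the wall as cells grow, and Chs2 builds the septum. Without tunicamycin *SLT2* was higher in *ups1*Δ cells (0.68), as were *RLM1* (0.90) and *GSC2* (1.67), and the interactions were -2.47 (adjusted p = 5.30e-08), -1.601 (adjusted p = 4.65e-05) and -2.42 (adjusted p = 1.68e-07) in that order. *CHS3* was lower in *ups1*Δ cells without the drug (-0.50) as well as with it, and so was *KRE6* (-0.43 without and -0.53 with it).

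The genes of the cytosolic ribosome were higher together in treated *ups1*Δ cells. *RPL3* (YOR063W) stood at 999, 1320.2 and 1292 CPM in treated wild-type and 4289, 3964 and 4505 CPM in treated *ups1*Δ libraries (1.82, SE 0.16, adjusted p = 5.54e-06). *RPL30* was at 178, 227 and 245 CPM and 805, 769 and 805 CPM (1.87, adjusted p = 2.43e-06). *RPP0*, the stalk protein, differed by 1.94 (adjusted p = 5.36e-06). The groups were apart in each of these genes, as in 71.7% of all genes.

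Of 137 ribosomal protein genes, 136 were higher in *ups1*Δ cells and 0 were lower, the second count being 0 at an unadjusted p-value under 0.05 too (median 1.85, 1.55 with library size alone, against -0.03 for all genes). The highest was *RPS9A* (2.55), at 31.6, 85.9 and 43.9 CPM and 331, 325 and 289 CPM, and its paralog *RPS9B* was at 2.03. The exception was *RPL15B*, at 67.4, 78.0 and 69.3 CPM and 66.5, 69.0 and 72.9 CPM (-0.04, adjusted p = 0.69). It was lower with library size alone, the 1 lower gene of that fit. Many of these genes come in near-identical pairs, and how reads were split within a pair is uncertain.

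Over these genes the mean log2 level relative to treated wild-type cells was 1.85, 1.75 and 1.89 in the treated *ups1*Δ libraries, 2.83, 2.73 and 2.68 in the untreated wild-type and 2.25, 2.22 and 1.99 in the untreated *ups1*Δ libraries. The order of the group means was thus untreated wild type, untreated *ups1*Δ, treated *ups1*Δ, treated wild type, and no library fell outside the order of its group. Without tunicamycin 131 of the 137 were lower in *ups1*Δ cells and 1 higher, so the genotype difference had the opposite sign, and the interaction was called for 136, all upward (median 2.44).

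**Figure D2:**
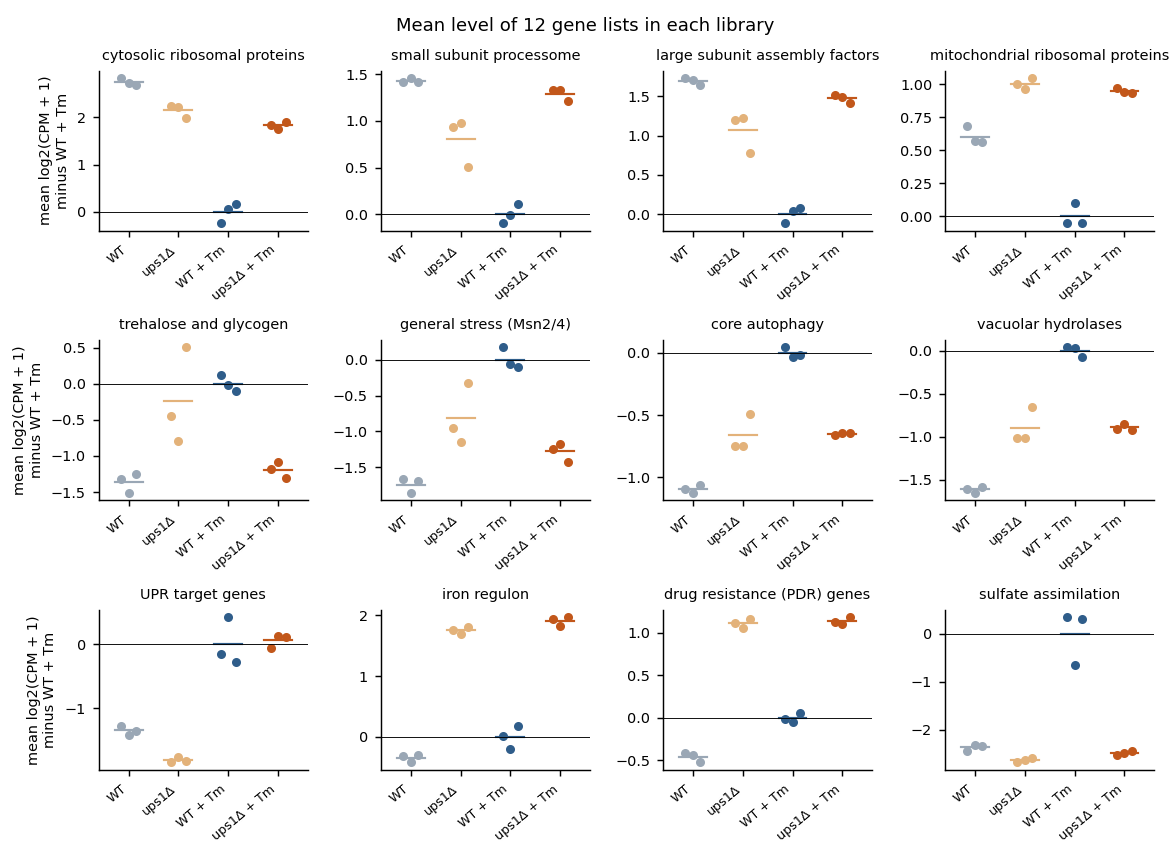
Mean level of 12 gene lists in each of the 12 libraries (points; line, mean of 3), as the mean of log2(CPM + 1) over the tested members minus the same in treated wild-type cells. The ribosomal protein and ribosome assembly lists are lowest in treated wild-type cells, the stress, trehalose and glycogen, autophagy and vacuolar lists are lower in treated *ups1*Δ than in treated wild-type cells, and the iron and PDR lists are higher in both *ups1*Δ groups.

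The factors that assemble ribosomes were higher in treated *ups1*Δ cells too. *NOP1*, the fibrillarin that methylates rRNA, stood at 174, 204 and 194 CPM in treated wild-type and 749, 727 and 858 CPM in treated *ups1*Δ libraries (2.03, SE 0.13, adjusted p = 9.67e-07). *NOP7*, needed for the large subunit, was at 114, 139 and 146 CPM and 554, 526 and 579 CPM (2.06, adjusted p = 8.24e-07). Neither gene showed overlap between the groups, which held for 71.7% of all genes. *UTP4* (1.65) and *MPP10* (1.48) of the small subunit processome and *NOP2* (1.73) and *TIF6* (0.91) of the large subunit were higher as well.

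All 49 processome genes (median 1.32, from 0.31 for *RRP3* to 2.34 for *SNU13*), all 52 large subunit assembly factors (median 1.51, from 0.29 for *SPB4* to 2.43 for *HAS1*) and all 8 RNA polymerase I genes (median 1.58) were higher, against 32.7% of all genes. With library size alone 47, 51 and 8 were. *RRP3* and *SPB4* are the genes at the weak end: *RRP3* lost its call in 3 of the 6 fits without 1 library (0.28 to 0.32) and *SPB4* in 4 (0.25 to 0.30). The Pol I subunit genes *RPA190* (1.56) and *RPA135* (1.59) were more strongly higher than *RRN3* (0.73), the initiation factor, and the lowest was *RPA14* (0.62), a subunit gene too. Without the drug 46 processome genes, 47 large subunit factors and 7 Pol I genes were lower in *ups1*Δ cells. The interaction was called for all 49, 52 and 8, all upward. The order of the group means differed from that of the ribosomal protein genes. Relative to treated wild-type cells, the mean log2 level of the processome list was 1.289 in treated and 0.808 in untreated *ups1*Δ cells. It was 1.474 and 1.065 for the large subunit factors and 1.395 and 1.001 for Pol I. For ribosomal proteins it was 1.828 and 2.154.

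Many assembly genes carry the PAC element, bound by the repressors Dot6 and Tod6, in the promoter. The letters GATGAG were searched on both strands in the 500 bases before the start codon of 5986 genes. They occurred in 28.3% of all promoters, in 87.8% of those of the processome list, in 88.5% of those of the large subunit factors, in 100% of the 8 of RNA polymerase I and in 21.9% of those of the ribosomal protein genes. The stretches below are examples, with 1 gene from each of the 3 assembly lists. They give 60 bases around the match nearest to the start codon, read in the direction of the gene, with coordinates in R64 (sacCer3) and with the element or its reverse complement in capitals.
NOP1 (chrIV:427133-427192, plus strand): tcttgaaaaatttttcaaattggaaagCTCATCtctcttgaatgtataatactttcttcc
NOP7 (chrVII:695271-695330, plus strand): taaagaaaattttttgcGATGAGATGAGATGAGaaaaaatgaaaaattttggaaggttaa
RPA190 (chrXV:960793-960852, plus strand): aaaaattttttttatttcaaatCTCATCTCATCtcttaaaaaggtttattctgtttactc

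The nearest matches lie 204 bases (*NOP1*), 119 bases (*NOP7*) and 167 bases (*RPA190*) before the start codon. The median log2 fold change was 1.34 for the 43 processome genes with the element and 0.97 for the 6 without it. Among the large subunit factors it was 1.56 for 46 and 1.24 for 6. *TOD6* itself was higher in treated *ups1*Δ cells (0.88) and *DOT6* was not called (-0.08). Genes around TORC1, the growth-promoting kinase complex, were mixed. Of 21 genes of TORC1, Sch9 and regulators of ribosome genes, 6 were higher and 7 lower, against 32.7% and 33.6% of all genes. *SCH9*, the kinase downstream of TORC1, was at 0.35 (adjusted p = 0.00552), a call lost with library size alone (0.051), *SFP1* at -0.40 (adjusted p = 0.00766) and *TOR1* at -0.09 (adjusted p = 0.466). *CRF1*, a corepressor of ribosomal protein genes, was the lowest at -1.70. A level of mRNA says nothing of the activity of these kinases.

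Across all genes, the share of promoters with the PAC element rose with the fold change. When the genes were ranked by fold change and cut into 10 bins of like size, it was 22.9% in the lowest bin and 44.7% in the highest. The letters AGGGG, the stress response element (STRE) bound by Msn2 and Msn4, ran the other way, from 51.2% in the lowest bin to 26.5% in the highest, with 34.1% over all promoters. Both are descriptions of letters in these windows, and no motif searched contains another.

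**Figure D3:**
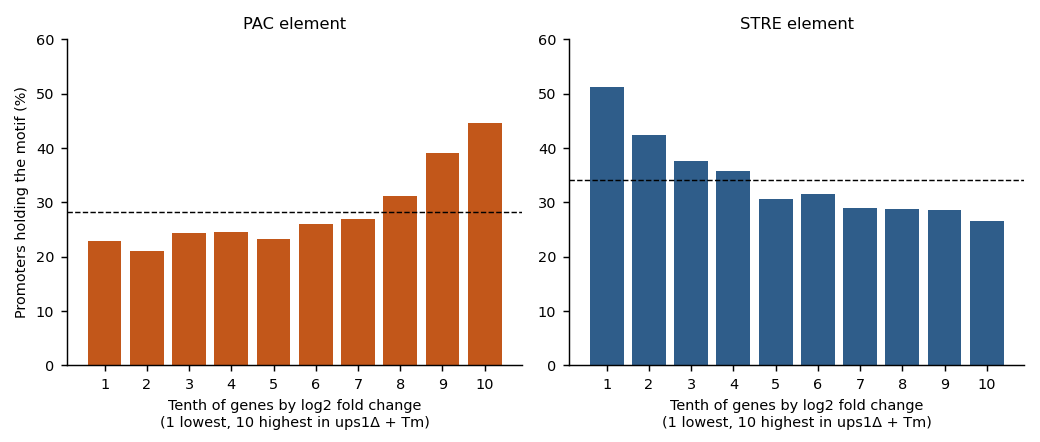
Share of 500-base promoters (y axis, percent) that hold the PAC element (left) or the stress response element STRE (right) in each of 10 bins of the tested genes ranked by log2 fold change between treated *ups1*Δ and treated wild-type cells (x axis). The dashed line is the share in all promoters, 28.3% for PAC and 34.1% for STRE, and bars start at 0.

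Genes that answer to general stress were lower in treated *ups1*Δ cells. *CTT1* (YGR088W, chromosome VII, 654634 to 656322), the cytosolic catalase, stood at 216, 185 and 178 CPM in treated wild-type and 22.2, 27.2 and 21.4 CPM in treated *ups1*Δ libraries (-3.02, SE 0.12, adjusted p = 1.05e-07). *DDR2* was at 575, 259.8 and 345 CPM and 54.7, 55.8 and 39.4 CPM (-2.97, adjusted p = 2.08e-04), and *HSP12*, a membrane-protecting small protein, at 1857, 1528 and 1217 CPM and 431, 564 and 459 CPM (-1.66, adjusted p = 2.62e-05). In each of the genes every *ups1*Δ value lay below every wild-type value, and the groups were apart in 71.7% of all genes.

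Of 24 targets and regulators in the Msn2/4 list, 19 were lower and 1 higher (median -1.41). The higher one was *HSP30* (0.74, adjusted p = 0.013), a call lost with library size alone (0.44) and with a replicate block. The regulator genes *MSN2* (-0.14) and *MSN4* (-0.49) were not called. The genes for the storage sugars moved alongside: 15 of 16 trehalose and glycogen genes were lower and 0 higher (median -1.17). *GPH1*, the glycogen phosphorylase, was the lowest, at 336, 193 and 248 CPM and 44.9, 48.8 and 36.9 CPM (-2.57). *GSY2*, the glycogen synthase, differed by -1.94 and *TPS1*, the trehalose phosphate synthase, by -0.79, so that genes for making and for breaking down glycogen were lower together. *GAC1* (0.68), a phosphatase subunit for glycogen synthase, was the highest and was not called.

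The stress response element was present in 19 of the 24 promoters of the general stress list and in 13 of the 16 of the trehalose and glycogen list. Stretches of 60 bases around the match nearest to the start codon are shown for *CTT1*, *DDR2* and *GPH1*, which were among the lowest members.
CTT1 (chrVII:654473-654532, plus strand): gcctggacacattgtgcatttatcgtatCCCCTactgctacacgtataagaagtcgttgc
DDR2 (chrXV:231899-231958, minus strand): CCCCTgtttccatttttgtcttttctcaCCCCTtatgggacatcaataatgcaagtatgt
GPH1 (chrXVI:860952-861011, plus strand): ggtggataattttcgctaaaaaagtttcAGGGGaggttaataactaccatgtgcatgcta

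The matches shown lie 133 bases (*CTT1*), 175 bases (*DDR2*) and 326 bases (*GPH1*) before the start codon. The windows of *CTT1*, *DDR2* and *GPH1* hold 3, 4 and 2 matches. The median log2 fold change was -1.73 for the 19 general stress genes with the element and -0.34 for the 5 without it. Those 5 include the regulator genes *MSN2* and *MSN4* and the higher gene *HSP30*. In the trehalose and glycogen list the medians were closer, at -1.25 for the 13 with the element and -0.68 for the 3 without it. Without tunicamycin, the genotype difference of these lists had the opposite sign, with 17 of 24 general stress genes and 12 of 16 trehalose and glycogen genes higher in *ups1*Δ cells. Untreated *ups1*Δ replicate 3 was the highest library there, at -0.45, -0.79 and 0.50 for the trehalose and glycogen list in replicates 1, 2 and 3 relative to treated wild-type cells. Under the drug the *ups1*Δ libraries were close together, at -1.19, -1.09 and -1.31. The interaction was called downward for 22 of the 24 and all 16 genes.

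Heat shock genes were mixed. *HSP104*, the disaggregase, was at 1355, 1338 and 970.5 CPM and 439, 481 and 411 CPM (-1.46, adjusted p = 2.41e-05), *SSA4* differed by -1.63 and *HSP82* by -1.01, whereas *HSP26* (-0.88) was not called and overlapped between groups. Of 20 genes, 11 were lower, with *SSE2* the lowest (-1.81), and 4 were higher, namely *SSB1* (1.98) and *SSB2* (1.87), the Hsp70 chaperones of the ribosome, *SSE1* (0.69) and *YDJ1* (0.39), whose call was lost in 4 of the 6 fits without 1 library (0.28 to 0.43) and with library size alone (0.092). *SSB1* and *SSB2* are near-identical and may share reads. In the thiol and superoxide defence list 5 of 18 genes were higher and 8 lower (median -0.09), against 32.7% and 33.6% of all genes. *RPN4*, the activator of proteasome genes, was lower (-0.88, adjusted p = 3.01e-05), and 18 of 36 proteasome genes were higher and 3 lower (median 0.23, turning to -0.07 with library size alone). Of the subunit genes, *PRE1* stood near the median (0.22, not called), and *RPT1* (0.85) was close to *PRE9*, the highest (0.88).

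Autophagy genes were lower in treated *ups1*Δ cells. *ATG1*, the kinase that starts autophagy, stood at 205, 154 and 202 CPM in treated wild-type and 61.1, 60.8 and 65.1 CPM in treated *ups1*Δ libraries (-1.59, SE 0.12, adjusted p = 2.12e-06). *ATG8*, the ubiquitin-like protein of the autophagosome, was at 67.1, 71.9 and 57.9 CPM and 34.3, 35.1 and 28.8 CPM (-0.998, adjusted p = 3.92e-05), and *ATG13*, the partner of Atg1, differed by -0.65 (adjusted p = 1.16e-04). The groups did not overlap for any of the genes, as for 71.7% of all genes.

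Of 18 core genes, 14 were lower and 0 higher, with 0 higher at an unadjusted p-value under 0.05 (median -0.66). The highest was *ATG10* (0.57), not called. Of 11 genes in the vacuolar hydrolase list, 10 were lower and 0 higher (median -0.90). The list includes *NTH1* (-1.04), a cytosolic trehalase gene that is also counted in the trehalose and glycogen list. The aminopeptidase gene *APE1* was the lowest (-1.61), *CPS1* was at -1.40 and the protease gene *PRB1* at -0.45 (adjusted p = 0.0177), a call lost without any one of the *ups1*Δ libraries (-0.48 to -0.41). *PEP4*, the protease that activates the others, was not called (-0.30, adjusted p = 0.0542). Without the drug 10 core autophagy genes and 8 genes of the hydrolase list, *NTH1* among them, were higher in *ups1*Δ cells and 0 lower. Untreated *ups1*Δ replicate 3 stood above the others there. The mean log2 level of the core list relative to treated wild-type cells was -0.75, -0.75 and -0.49 in replicates 1, 2 and 3. For *ATG1* and *ATG8* the difference reversed with tunicamycin, with interactions of -2.51 (adjusted p = 3.52e-08) and -2.13 (adjusted p = 6.47e-06). The interaction was called downward for 14 of 18 core genes and 11 of 11 genes of the hydrolase list.

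Genes for iron uptake were higher in treated *ups1*Δ cells, and some of them were among the largest increases. *FIT3* (YOR383C, chromosome XV, 1060441 to 1061055) encodes a cell wall mannoprotein that helps to hold siderophores, the iron carriers. It stood at 78.0, 62.8 and 64.3 CPM in treated wild-type and 6688, 5577 and 6771 CPM in treated *ups1*Δ libraries (6.54, SE 0.19, adjusted p = 1.49e-08). Its neighbour *FIT2* was at 30.2, 26.8 and 31.5 CPM and 2093, 1694 and 1924 CPM (6.01, adjusted p = 1.24e-08). No wild-type library came near the *ups1*Δ values of either gene.

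The siderophore transporter genes *SIT1* (4.20, adjusted p = 1.05e-07), *ARN2* (3.84, adjusted p = 2.05e-07) and *ARN1* (2.72) and the reductase gene *FRE5* (5.46, adjusted p = 2.05e-07) followed. *ARN2* was at 119.9, 95.03 and 129 CPM and 1681, 1487 and 1777 CPM. The reductive uptake pair *FET3*, the multicopper oxidase, and *FTR1*, the permease, differed by 2.36 (adjusted p = 9.55e-05) and 2.23 (adjusted p = 6.40e-06). Of 28 genes of the iron regulon, 24 were higher and 1 lower (median 1.45). *ISU1* (-0.19), *VHT1* (-0.20) and *FRE6* (0.20) were not called. The lower gene was *BNA2* (-1.66), an enzyme of NAD synthesis from tryptophan. *LSO1* (YJR005C-A, chromosome X, 448477 to 448758), a small gene known to respond to low iron and not on the list, had 0, 4 and 2 counts in treated wild-type and 357, 442 and 340 in treated *ups1*Δ libraries (7.52, adjusted p = 1.05e-07).

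Aft1, the activator of this regulon, binds the core TGCACCC. These letters were in 20 of the 28 promoters on either strand (71.4%), against 2.32% of all promoters. The genes with the core had a median log2 fold change of 2.29 and the 8 without it 0.98. Stretches of 60 bases are shown for *FIT3*, *FIT2* and *ARN2*, with the core or its reverse complement in capitals.
FIT3 (chrXV:1061207-1061266, minus strand): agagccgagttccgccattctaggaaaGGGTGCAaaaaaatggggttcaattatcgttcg
FIT2 (chrXV:1059373-1059432, plus strand): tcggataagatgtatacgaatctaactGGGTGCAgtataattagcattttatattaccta
ARN2 (chrVIII:10628-10687, minus strand): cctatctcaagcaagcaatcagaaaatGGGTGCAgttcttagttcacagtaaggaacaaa

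The window of *FIT2* holds 4 matches, that of *FIT3* holds 2 and that of *ARN2* holds 1. *FRE3*, *FIT2*, *FIT3* and *FRE5* are neighbours on chromosome XV, and the windows of *FIT3* and *FRE5*, which point away from each other, overlap. The iron genes were already higher without tunicamycin, 26 of 28, with 7.33 for *FIT3* and 4.63 for *ARN2*. The differences of *FIT3* and *ARN2* were smaller under the drug (interaction -0.77 (adjusted p = 0.00301) and -0.75 (adjusted p = 0.00321)), and those of *SIT1*, *FET3* and *FTR1* were larger (2.15 (adjusted p = 2.39e-07), 1.32 (adjusted p = 0.00199) and 1.34 (adjusted p = 1.36e-04)). For *SIT1* the levels were 172, 145 and 170.1 CPM in untreated and 40.1, 30.2 and 45.1 CPM in treated wild-type cells, and 616, 651 and 742 CPM and 735, 655 and 730.5 CPM in *ups1*Δ cells.

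**Figure D4:**
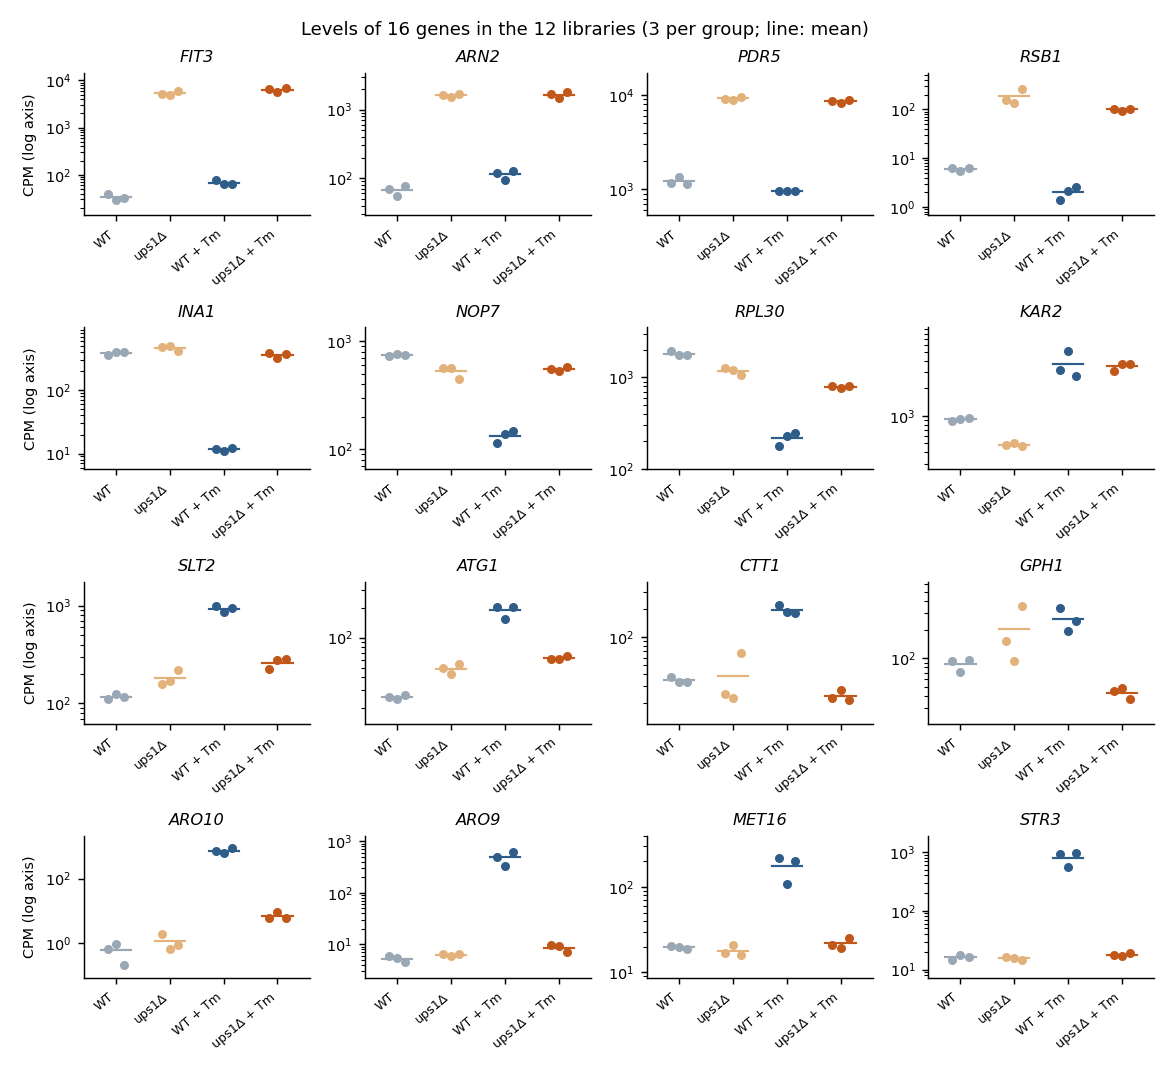
CPM of 16 genes in each of the 12 libraries (log y axis; points, libraries; line, mean of 3), with WT + Tm and ups1Δ + Tm the treated groups. *FIT3*, *ARN2*, *PDR5* and *RSB1* are high in both *ups1*Δ groups, *INA1*, *NOP7* and *RPL30* are low in treated wild-type cells, *SLT2*, *ATG1*, *CTT1*, *ARO10*, *ARO9*, *MET16* and *STR3* are high there, and *KAR2* overlaps between the treated groups.

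The pleiotropic drug resistance (PDR) genes, which encode pumps and lipid translocators under the activators Pdr1 and Pdr3, were mostly higher in *ups1*Δ cells as well. *PDR5*, the main drug pump, stood at 954, 965 and 957 CPM in treated wild-type and 8708, 8153 and 8816 CPM in treated *ups1*Δ libraries (3.16, SE 0.14, adjusted p = 2.56e-07). *RSB1*, a protein of sphingoid base export, was at 1.39, 2.10 and 2.52 CPM and 105, 95.1 and 100.3 CPM (5.62, adjusted p = 1.24e-08). The wild-type libraries varied little in *PDR5*, and no *ups1*Δ library came near them.

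*PDR15* (2.10), *PDR16* (2.14), *CIS1* (3.19), *SNQ2* (0.88), *YOR1* (0.39) and the activator gene *PDR3* (1.68) were higher, whereas *PDR1* was not called (0.11, adjusted p = 0.254). *YOR1* lost its call with library size alone (0.09). Of 14 genes, 8 were higher and 4 lower (median 0.63). The lower ones were *RTA1* (-0.90), *PDR18* (-0.90), *FLR1* (-0.70) and *PDR10* (-0.56), and the call of *RTA1* was lost in 4 of the 6 fits without 1 library (-1.01 to -0.58). *YGR035C* (YGR035C, chromosome VII, 557072 to 557422), a gene of unknown function off the list, was at 4.52, 4.21 and 4.88 CPM and 124, 122 and 102 CPM (4.67, adjusted p = 1.49e-08).

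The core of the element that Pdr1 and Pdr3 bind, CCGCGG, occurred in 3.16% of all promoters and in 5 of the 14 of the list, those of *PDR3*, *PDR5*, *PDR15*, *PDR16* and *CIS1*. All 5 genes were higher, with a median of 2.14 against 0.11 for the other 9, which include the activator gene *PDR1*. *RSB1* (5.62), the highest of the list, *SNQ2* (0.88) and *YOR1* (0.39) were higher without the core. The lower genes *RTA1*, *PDR18*, *FLR1* and *PDR10* lack it too. Among all genes ranked by fold change in 10 bins, 2.84% of promoters held the core in the lowest bin and 3.74% in the highest. The promoters of *PDR5* and *YGR035C* hold 4 and 3 matches, and the nearest to the start codon are shown.
PDR5 (chrXV:619501-619560, plus strand): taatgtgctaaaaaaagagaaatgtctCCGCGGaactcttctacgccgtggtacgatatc
YGR035C (chrVII:557643-557702, minus strand): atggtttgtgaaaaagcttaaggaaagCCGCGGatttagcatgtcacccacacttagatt

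Without tunicamycin 10 of 13 tested PDR genes were higher in *ups1*Δ cells and 0 lower. For *PDR5* (0.25, adjusted p = 0.12) and *PDR3* (-0.08, adjusted p = 0.49) the interaction was not called. *PDR15* (-1.40), *SNQ2* (-0.65) and *YOR1* (-0.44) differed less between the genotypes under the drug, and the interactions were called. *PDR16* differed more under the drug (1.09, adjusted p = 1.78e-05). *PDR10* (-1.10, adjusted p = 3.01e-05) and *PDR18* (-1.69, adjusted p = 0.00127) were higher in *ups1*Δ cells without the drug and lower with it.

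Some of the largest decreases were in genes of amino acid use. *ARO10* (YDR380W, chromosome IV, 1234218 to 1236125), the decarboxylase of the Ehrlich pathway that turns amino acids into fusel alcohols, stood at 718, 609.8 and 887 CPM in treated wild-type and 6.01, 9.26 and 5.98 CPM in treated *ups1*Δ libraries (-6.67, SE 0.23, adjusted p = 5.57e-08). *ARO9*, the aromatic aminotransferase, was at 502, 340.1 and 631 CPM and 9.61, 9.26 and 7.21 CPM (-5.81, adjusted p = 8.24e-07). *ARO80*, their activator, differed by -0.96 (adjusted p = 1.72e-05). Without the drug *ups1*Δ cells had 6.40, 5.86 and 6.56 CPM of *ARO9* and 1.83, 0.651 and 0.875 CPM of *ARO10*, and *ARO10* was too low to be tested there. Of 13 genes of the pathway, 7 were lower and 2 higher, the latter being *ADH1* (2.38) and *PDC1* (1.222), which also serve fermentation.

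Nearly all sulfate assimilation genes were lower. *STR3*, cystathionine beta-lyase, stood at 904, 545 and 951 CPM in treated wild-type and 17.8, 16.9 and 19.0 CPM in treated *ups1*Δ libraries (-5.49, adjusted p = 3.25e-07). *SUL1*, a sulfate permease, had 159, 61 and 130 counts and 1, 6 and 1 counts (-5.37, adjusted p = 3.80e-05). *MET16* was at 219.8, 109.9 and 204 CPM and 20.8, 19.1 and 25.6 CPM (-3.04, adjusted p = 1.21e-04), *MET3* at -2.58 and the regulator gene *MET28* at -3.78 (adjusted p = 5.86e-05). Wild-type replicate 2 had the lowest value of its group in each of these genes, and it still lay above every *ups1*Δ library.

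Of 19 genes, 17 were lower and 0 higher (median -3.04), and *MET8* (-0.55) and *SAM1* (-0.07) were not called. Without the drug no difference in *STR3* was detected (-0.03, adjusted p = 0.861), and the interaction was -5.42 (adjusted p = 2.33e-08). The wild-type strain lacks *MET17* transcripts and the knockout has them, so the loss of *UPS1* and this marker cannot be told apart for the sulfur genes.

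Lysine synthesis showed the same confounding with *LYS2*. *LYS1* stood at 412, 296 and 469.5 CPM and 93.9, 97.2 and 119 CPM (-1.93, adjusted p = 1.33e-05), *LYS9* was at -0.10 and *LYS20*, the highest, at 0.42, neither of them called, and 5 of 8 genes were lower and 0 higher. In general amino acid control, the activator and its targets differed in direction. *GCN4* mRNA was higher in *ups1*Δ cells, at 618, 539.7 and 569 CPM and 1166, 1126 and 1161 CPM (1.00, adjusted p = 5.14e-05), while its targets *HIS4* (-1.80, adjusted p = 3.29e-04), *ARG1* (-0.74, adjusted p = 0.0222) and *ARG4* (-2.07), the lowest, were lower. Of 27 genes, 20 were lower (median -0.74) and 2 higher, *GCN4* and *THR4* (0.39). Gcn4 is controlled mainly in translation, which these counts do not show. *ARG1* lost its call in 3 of the 6 fits without 1 library (-0.67 to -0.54), and *THR4* without *ups1*Δ replicate 3 (0.34) and with library size alone (0.092).

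Under nitrogen catabolite repression, which silences the use of poor nitrogen sources, 15 of 24 tested genes were lower and 3 higher (median -0.52). *GAP1*, the general amino acid permease, was not called (-0.34, adjusted p = 0.172), and *DAL80* had too few counts to be tested. The higher ones were *DUR3* (0.53), *MEP2* (0.41) and *GZF3* (0.28), and *CPS1*, a vacuolar peptidase, was the lowest (-1.40). *DUR3*, *MEP2* and *GZF3* each lost the call in 4 of the 6 fits without 1 library (0.27 to 0.58, 0.33 to 0.43 and 0.22 to 0.29), and with library size alone (0.23, 0.11 and -0.015). With library size alone 21 were lower and 0 higher. In the phosphate regulon 2 of 13 genes were higher and 4 lower, against 32.7% and 33.6% of all genes. *PHO84* was at 0.37 (adjusted p = 0.0238) and *PHO5* at -0.38 (adjusted p = 0.0266), and *PHO84* lost its call with library size alone (0.067). Each of these calls was lost in 4 of the 6 fits without 1 library (0.26 to 0.38 and -0.40 to -0.25).

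The mitochondrial genes split by function. *MRPL3* of the mitochondrial ribosome stood at 50.6, 50.5 and 48.6 CPM in treated wild-type and 87.5, 84.9 and 94.6 CPM in treated *ups1*Δ libraries (0.83, adjusted p = 1.72e-05), and *MRPS5* differed by 0.92 (adjusted p = 3.66e-05). Of 66 mitochondrial ribosomal protein genes, 65 were higher and 0 lower, from 0.20 for *MRP49*, not called, to 1.89 for *MRPL39* (median 1.00). This list was higher in *ups1*Δ cells without the drug as well, for 52 genes (median 0.48).

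Import and folding went the same way. *HSP60*, the matrix chaperonin, was at 302, 403 and 273 CPM and 760.3, 716 and 729.9 CPM (1.17, adjusted p = 8.40e-05), *SSC1*, the matrix Hsp70, at 1.03 (adjusted p = 1.23e-04) and *TIM23*, the inner membrane channel, at 1.5 (adjusted p = 4.73e-07). Of 27 genes, 21 were higher and 2 lower (median 1.03). The lower pair was *HSP78* (-1.39), a disaggregase, and *MSP1* (-0.50), which extracts mistargeted proteins, and the highest was the receptor gene *TOM20* (1.69).

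The respiratory chain ran opposite. *SDH1*, a succinate dehydrogenase subunit, stood at 159, 145 and 115 CPM and 49.7, 64.6 and 55.4 CPM (-1.30, adjusted p = 2.43e-05), *COX4* of cytochrome oxidase at 65.5, 74.7 and 56.0 CPM and 34.5, 39.4 and 31.7 CPM (-0.89, adjusted p = 1.69e-04), and *CYC1*, cytochrome c, at -0.57 (adjusted p = 0.0152), a call lost without *ups1*Δ replicate 2 (-0.47). *ATP1* of the ATP synthase was not called (-0.13, adjusted p = 0.337). Of 43 genes of the respiratory chain and the ATP synthase together, 30 were lower and 2 higher (median -0.67). Most of those not called were ATP synthase genes. Besides *ATP1* they were *ATP20* (-0.19), *ATP4* (-0.18), *ATP3* (-0.12), *ATP16* (-0.02), *ATP5* (0.02), *ATP2* (0.15), *TIM11* (0.16) and *ATP14* (0.16). *CYC7* (-0.48) and *NDE1* (-0.18) were not called either. The 2 called higher were *ATP18* (0.25) and *ATP19* (0.36), small ATP synthase subunits. *ATP18* lost its call in 5 of the 6 fits without 1 library (0.20 to 0.30) and was at -0.05 with library size alone, and *ATP19* lost its call without wild-type replicate 3 (0.31) or *ups1*Δ replicate 3 (0.29) and with library size alone (0.062).

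*COX26*, another cytochrome oxidase subunit, was the lowest, with 184, 77 and 152 counts in treated wild-type and 6, 13 and 3 counts in treated *ups1*Δ libraries (-4.19, adjusted p = 3.71e-05). *SHH3*, a homolog of the succinate dehydrogenase subunit Sdh3, had 113, 49 and 57 and 4, 5 and 1 counts (-4.38, adjusted p = 4.62e-05). Both genes were rare without the drug, with group means of 1.30 CPM in wild-type and 2.43 CPM in *ups1*Δ cells for *COX26*. In the TCA cycle 6 of 15 genes were lower and 3 higher (median -0.20), against 33.6% lower and 32.7% higher among all genes. *CIT1* (-0.65) and *KGD1* (-0.59) were lower, *ACO1* (-0.16) was not called, and the isocitrate dehydrogenase genes *IDH1* (1.199) and *IDH2* (1.19) were higher together with *MDH1* (0.39), whose call was lost in 4 of the 6 fits without 1 library (0.24 to 0.41) and with library size alone (0.090).

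Fermentative genes were higher. *TDH3*, the main glyceraldehyde phosphate dehydrogenase, stood at 8040.2, 10219 and 7294 CPM in treated wild-type and 20129.6, 18188 and 17946 CPM in treated *ups1*Δ libraries (1.14, adjusted p = 2.31e-04), *PGK1* at 1.26 (adjusted p = 2.06e-04) and *CDC19*, pyruvate kinase, at 1.25 (adjusted p = 1.07e-04). Of 17 glycolytic and fermentation genes, 13 were higher and 3 lower (median 1.14), from *TDH2* (2.39) to *ADH2* (-2.13), the alcohol dehydrogenase that consumes ethanol. The other lower genes were *HXK1* (-1.32) and *GLK1* (-0.43), the kinases of cells short of glucose, and *GLK1* lost its call in 4 of the 6 fits without 1 library (-0.45 to -0.36). Glyoxylate and gluconeogenesis genes were lower, 8 of 12, with 1 higher, *MDH2* (0.50), whose call was lost with library size alone (0.20). Among them *ICL1* was at -1.12, *PCK1* at -0.66, *FBP1* at -1.45 and the lactate permease gene *JEN1*, the lowest, at -1.75, while *ADR1*, the highest at 0.56, was not called. Of 14 hexose transporter and glucose sensing genes, 2 were higher, *HXT3* (1.69) and *HXT1* (0.94), which serve high glucose, and 6 lower, with the high-affinity *HXT7* lowest (-2.34). *HXT2* was not called (0.41). The mean log2(CPM + 1) of the list minus that in treated wild-type cells was -0.20, -0.21 and -0.80 in treated *ups1*Δ replicates 1, 2 and 3, so that replicate 3 stood below the others, and -0.92, -0.94 and 0.21 in the untreated ones, where replicate 3 stood above. *HXT7* is near-identical to *HXT6* and shares reads with it.

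Lipid genes close to the function of Ups1 differed one by one. *MDM35*, the partner of Ups1, was higher, at 21.5, 25.4 and 20.02 CPM in treated wild-type and 54.9, 47.6 and 42.0 CPM in treated *ups1*Δ libraries (1.11, adjusted p = 5.31e-05). *UPS2*, which carries phosphatidylserine, was at 51.4, 49.6 and 48.6 CPM and 49.9, 52.8 and 65.1 CPM and not called (0.16 (adjusted p = 0.231), or -0.14 with library size alone), and *UPS3* was at -0.35, not called either.

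In cardiolipin synthesis *TAM41*, the mitochondrial CDP-diacylglycerol synthase, was lower at 103, 87.5 and 94.2 CPM and 50.3, 55.4 and 52.1 CPM (-0.85, adjusted p = 2.74e-05). *CRD1*, the cardiolipin synthase, was lower as well (55.3, 54.4 and 68.0 CPM and 31.6, 29.3 and 26.2 CPM, -1.03 (adjusted p = 4.66e-05)). *CLD1*, the deacylase that remodels cardiolipin, was the lowest (-1.75, adjusted p = 3.11e-06). *GEP4*, the phosphatase between these steps, was higher (0.91, adjusted p = 1.98e-04), and *PGS1* (0.04) and *TAZ1* (0.03) were not called. *TAM41* and *CRD1* did not differ detectably without the drug (-0.03 (adjusted p = 0.792) and 0.18 (adjusted p = 0.245)), and the interactions were -0.79 (adjusted p = 6.41e-05) and -1.17 (adjusted p = 3.92e-05).

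Of 21 genes of phospholipid synthesis, 9 were higher and 4 lower, against 32.7% and 33.6% of all genes. The median of the list was 0.07 and turned to -0.23 with library size alone. *CDS1*, the ER CDP-diacylglycerol synthase, was the highest, at 32.0, 37.3 and 35.2 CPM and 134, 127 and 125 CPM (1.89, adjusted p = 3.11e-07). *CHO1*, phosphatidylserine synthase, was higher (1.12, adjusted p = 1.60e-05), as was *PSD1*, the mitochondrial decarboxylase (0.48, adjusted p = 0.00229), a call lost with library size alone (0.18). *CHO2* (-0.28), *OPI3* (-0.11) and *INO1* (0.02) were not called. The lower genes were *PAH1* (-0.80), the phosphatidic acid phosphatase, *INO4* (-0.66), *PSD2* (-0.44) and *PCT1* (-0.25), and the last lost its call in 5 of the 6 fits without 1 library (-0.26 to -0.21). For *INO1* the wild-type values of 55.1, 97.7 and 47.6 CPM spanned those of *ups1*Δ cells.

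Ergosterol synthesis had 10 of 26 genes higher and 4 lower (median 0.06, turning to -0.24 with library size alone). Among all genes 32.7% were higher and 33.6% lower. *ERG6*, the highest, was at 1.10 and *ERG3* at 0.90 (adjusted p = 6.07e-05), the activator gene *UPC2* was at 0.67 (adjusted p = 0.00102), and the lower genes were *ERG7* (-1.06), *ERG11* (-0.64), *ERG8* (-0.61) and *ERG5* (-0.57). *HMG1*, the reductase isoenzyme, was not called (0.02). Of the lists that bear on growth and mating, 3 of 10 histone genes were higher, near the share of all genes, and 0 were lower. Of 12 cyclin and cyclin inhibitor genes 2 were higher and 4 lower, the latter near the share of all genes. Of 22 shared pheromone pathway genes 1 was higher and 16 were lower. For the last list, mating type, markers and the loss of *UPS1* cannot be told apart.

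Single genes of the largest differences lay outside these lists. *INA1* (YLR413W, chromosome XII, 951156 to 953183) stood at 12.0, 10.9 and 12.3 CPM in treated wild-type and 389.8, 327 and 379 CPM in treated *ups1*Δ libraries (4.96, SE 0.12, adjusted p = 6.70e-09). Without the drug it was at 357, 397 and 404 CPM and 478, 509 and 421 CPM (0.31, adjusted p = 0.0155), so the genotypes were close until tunicamycin was given (interaction 4.68 (adjusted p = 2.32e-10)). *ANB1*, the hypoxic form of the translation factor eIF5A, was at 2.26, 1.05 and 3.53 CPM and 25.2, 19.4 and 23.5 CPM (3.29, adjusted p = 9.32e-06). *MND1* (-3.74, adjusted p = 4.35e-06), a gene of meiotic recombination, lies beside *STR3* on chromosome VII and was lower like it.

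*DDI2*, a cyanamide hydratase gene, was lower (-4.02, adjusted p = 7.32e-04), but it is identical in sequence to *DDI3* and its reads are uncertain. The same holds for 3 retrotransposon genes. *YHR214C-C* had 0, 0 and 0 counts in treated wild-type and 164, 300 and 138 in treated *ups1*Δ libraries, at least 65.1-fold higher, and *YDR210W-B* (-3.95) and *YGR038C-A* (-3.72) were lower. Copies of these elements share reads and their positions differ between strains. *YLR154W-E*, from the rDNA region, had 43, 18 and 10 counts in wild-type and 43, 331 and 321 in *ups1*Δ libraries (3.29, adjusted p = 0.0111), and its call was lost without wild-type replicate 2 (3.15) or 3 (2.92). Of the genes beside *UPS1*, *HCR1* was higher (0.74, adjusted p = 3.15e-04) and *NCW2*, a wall gene, lower (-1.45, adjusted p = 8.83e-04), and neither was called without the drug (-0.03 and 0.39).

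The genotype difference under tunicamycin was set beside that without it. The comparisons share no library. Of 5638 genes tested in both and in the interaction, 3747 were called with tunicamycin and 2947 without it, and 2208 in both, which is 58.9% of the former and 74.9% of the latter. Of these 2208, 587 had the same direction and 1621 (73.4%) the opposite one, and the interaction was called for all 1621. Of the genes lower without the drug, 890 were higher with it, and of those higher without it, 731 were lower with it. The former include most genes of the ribosome lists, and the latter many genes of the stress, storage sugar and autophagy lists.

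A further 1539 genes were called with tunicamycin and not without, and the interaction was called for 1284 of them. In total, 3849 of 5828 genes (66.0%) had a called interaction, 1917 upward and 1932 downward, or 1221 and 2927 with library size alone. Among the genes called higher in both were many iron genes and 8 of the 14 PDR genes, while *PDR10* and *PDR18* took opposite directions.

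**Figure D5:**
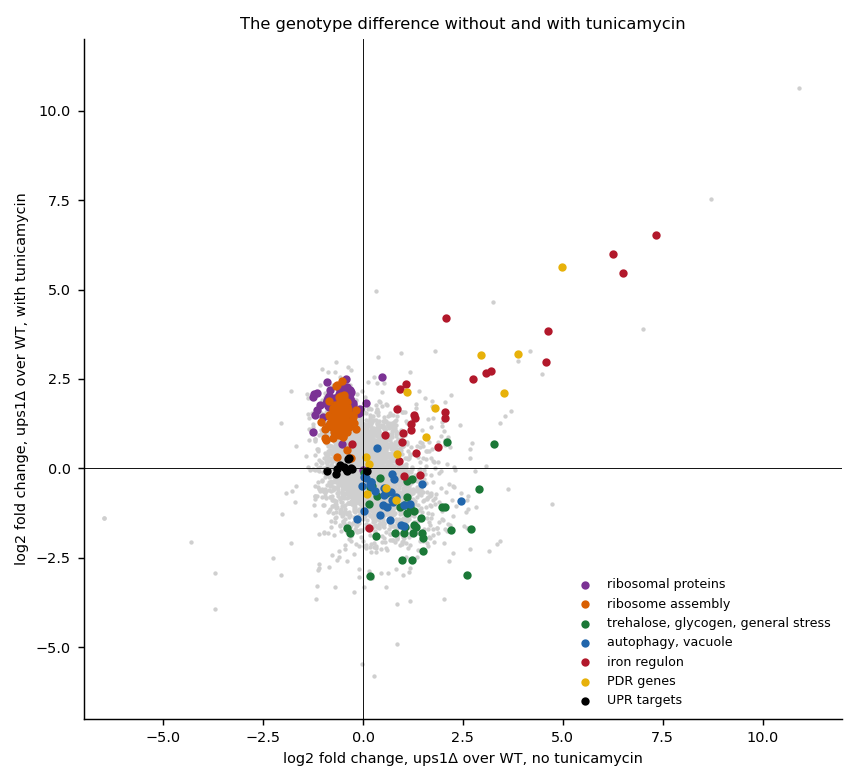
Log2 fold change of *ups1*Δ over wild-type cells without tunicamycin (x axis) and with it (y axis) for 5614 genes tested in both comparisons, with the genes set aside left out; TMM scaling. Most ribosomal protein and ribosome assembly genes lie left of 0 and above 0. Stress, storage sugar, autophagy and vacuolar genes lie mostly right of 0 and below 0. Iron and PDR genes lie mostly in the upper right, and UPR targets mostly left of 0 at a height near 0.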

How the data were processed

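RNA of 12 budding yeast cultures was measured by poly(A) RNA-seq in 4 groups of 3. The authors quantified reads with kallisto against the sacCer3 (R64) transcripts and deposited estimated counts as whole numbers for 7110 features, of which 6048 matched an R64 gene (the rest held 0.215% to 0.34% of counts). The deposited tables of the authors' DESeq2 comparisons (fold changes and p-values) were not used. Totals per treated library were 4650828 to 7101983 counts, which limits precision for rare genes. The counts were tested as deposited with edgeR 4.0.16 (limma 3.58.1, R 4.3.3): filterByExpr, TMM, robust quasi-likelihood F test, Benjamini-Hochberg adjustment over all genes tested, threshold 0.05. A "call" is an adjusted p-value under it. The SE given with a fold change is its absolute log2 value divided by the square root of the F statistic. Treated and untreated groups were fitted separately, and the interaction (the treated minus the untreated genotype difference) on all 12 libraries. CPM used the TMM factors of all 12.

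UPS1, mating-type, mating-specific and marker genes were set aside (26 genes). Named were the 12 largest increases and 12 largest decreases among called genes without overlap and with at least 10 CPM in a group mean, the lead members of each list, its extremes, and members called against its median where these were at most 5. Others (such as ARN1, CIS1, PDR1, PDR16, DOT6, RPS9B, MET8, ISU1, FRE6, VHT1, MSN2, MSN4, TAZ1, TOR1, SCH9, SFP1, PHO5, PHO84, HCR1, NCW2, HRD3 and USA1) were named after their values were seen. Members and lists were chosen with earlier results of these data known. No set test was run, and each list is given by its counts and median. Data were simulated for the treated comparison, with 5746 genes and 196 changed. In them, 46.2% of changes of 0.5 and 100% of changes of 1 and of 2 on the log2 scale were recovered. Of the calls, 3.59% were false. The simulation gave all genes a common dispersion and changed few of them, in both directions. With 66.4% of genes called in the real comparison, it cannot show how the TMM assumption or dispersion by gene affects those calls. Alternatives were DESeq2 1.42.0, its size factors, library size alone, filters, thresholds, all libraries in one fit, a replicate block, and leaving out each library. Promoters are the 500 bases before the start codon in RefSeq R64.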

Additional observations from a re-analysis of the deposited data

Results flagged for a closer look

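The genotype difference differed with and without tunicamycin, by a test of the interaction on all 12 libraries, for 3849 genes and for the named genes that follow. Each value is the difference between treated cells minus that between untreated cells, on the log2 scale. Among iron and other strongly higher genes the interaction was *FIT3* -0.77, *ARN2* -0.75, *SIT1* 2.15, *INA1* 4.68, *YGR035C* 1.44 and *ANB1* 1.51. It was *ARO10* -7.57, *ARO9* -6.05, *ARO80* -1.20, *STR3* -5.42, *SUL1* -5.58, *MET28* -4.59, *LYS1* -3.04, *HIS4* -2.55 and *ARG1* -2.40 for genes of amino acid use. *ARO10*, *SUL1*, *SHH3*, *COX26*, *DDI2* and *MND1* had too few counts without the drug to be tested there, so the size of their interaction depends on the prior count. For other strongly lower genes it was *PIR3* -5.75, *SHH3* -7.72, *COX26* -5.08, *DDI2* -4.05, *MND1* -3.98 and *YGR038C-A* -4.85. The secretory and lipid genes had *CHO1* 1.51, *PSD1* 1.222, *STT3* 0.72, *PMT2* 1.13, *SEC61* 0.84, *SEC63* 1.08 and *SAR1* 0.56. Cell wall genes had *SLT2* -2.47, *RLM1* -1.601 and *GSC2* -2.42. Genes of ribosomes and their assembly had *RPL3* 2.09, *RPL30* 2.49, *RPP0* 2.32, *NOP1* 2.60, *UTP4* 2.31, *MPP10* 1.80, *NOP2* 2.16, *NOP7* 2.56, *TIF6* 1.46, *RPA190* 2.09 and *RPA135* 2.20. Autophagy and vacuolar genes had *ATG1* -2.51, *ATG8* -2.13, *ATG13* -0.91 and *PRB1* -1.89. Carbon and storage genes had *CIT1* -1.67, *ICL1* -1.50, *PCK1* -2.11, *TPS1* -1.87 and *GSY2* -3.41. Stress and chaperone genes had *DDR2* -5.53, *HSP104* -2.42, *SSA4* -1.97, *HSP82* -1.38 and *RPN4* -1.21, and untreated *ups1*Δ replicate 3 was the highest of its group for *DDR2*, at 44.6, 36.2 and 131 CPM in replicates 1, 2 and 3.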

How the results depend on the processing

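The numbers of genes called in the 3 comparisons stayed within 1.5 times under each alternative fit. Stricter thresholds left fewer: 732 higher and 582 lower treated calls (1314 in all) reached a log2 fold change of 1, as did 355 and 120 untreated and 951 and 980 interaction calls, and 1928 of 2978 untreated calls passed at 0.01. The treated count was 3661 with DESeq2, 4204 with library size alone, 3779 with a replicate block and 3394 to 4081 without 1 library, and the interaction count was 3778 with the block. Replicate numbers did not pair the treated libraries (same-number correlations of 0.00279, 0.0983 and 0.0914), and a block on them for the untreated comparison, added after seeing the data, gave 3012 against 2978. Of 197 called named genes, 161 kept the call in every alternative and 36 lost it in at least 1. With library size alone, these medians became negative: Ups family -0.14, phospholipid synthesis -0.23, ergosterol synthesis -0.24, UPR sensor and effector -0.14, lipid-linked oligosaccharide -0.20, oligosaccharyltransferase -0.057, COPII and ER export -0.099 and proteasome -0.071. So did *UPS2* -0.14, *PGS1* -0.26, *INO1* -0.28, *HMG1* -0.28, *IRE1* -0.14, *ALG7* -0.099, *PRE1* -0.075, *SBH2* -0.28, *SPB4* -0.0057, *MRP49* -0.099, *ATP18* -0.046, *FRE6* -0.10, *GZF3* -0.015, *PDR1* -0.19 and *TAZ1* -0.27. With a replicate block *ULI1* was at 0.25. Without 1 library at a time, these values took both signs: the median of the UPR target genes -0.14 to 0.19, *PGS1* -0.039 to 0.18, *INO1* -0.18 to 0.40, *OPI3* -0.25 to 0.026, *HMG1* -0.012 to 0.057, *KAR2* -0.26 to 0.24, *ERO1* -0.15 to 0.17, *ULI1* -0.36 to 1.05, *HRD1* -0.25 to 0.0048, *DER1* -0.21 to 0.14, *FKS1* -0.21 to 0.024, *SIL1* -0.29 to 0.093, *SBH2* -0.0099 to 0.060, *RPL15B* -0.087 to 0.023, *SAM1* -0.26 to 0.078, *DOT6* -0.12 to 0.0063 and *VHT1* -0.44 to 0.088. The cause was not tested. With library size alone the median of all genes moved from -0.03 to -0.33. Depth limits the rare genes, since 3 counts are 0.415 to 0.618 CPM in treated libraries, and gene counts show neither splicing of *HAC1* nor protein. Mating type and markers cannot be told apart from the loss of *UPS1*.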
